A study of Mus musculus with 18 samples.

Results

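The 10 genes described here are the mouse genes of the Nrf2 pathway and its best known targets, and they were taken by symbol from the 28442 genes of the table. They comprise the transcription factor Nfe2l2 (Nrf2), its inhibitor Keap1 and 8 targets, Nqo1, Gclc, Gclm, Hmox1, Txnrd1, Srxn1, G6pdx and Gpx2. Expression was measured by bulk RNA-seq of poly-A RNA in 6 non-tumoral livers and 12 advanced tumors of Alb-R26Met mice, and the question was whether the pathway's genes differ between tumors and livers and among tumors. In these mice a mouse-human chimeric Met transgene at the Rosa26 locus is switched on by a Cre recombinase that the albumin promoter drives, so that MET levels rise in hepatocytes and tumors form spontaneously with age. Livers and tumors carried the same alleles and the labels give no treatment for either, and the livers came from mice without tumors, so the livers are not wild-type controls. Mice were males of a mixed C57 and 129Sv background, 52 to 71 weeks old for livers and 49 to 72 weeks old for tumors. The 18 samples came from 17 mice, because tumors 11 and 12 were taken from 1 mouse. The labels and the study's list of mice give different mouse numbers for tumors 3 and 10, whose values were assigned by tumor number and tag. Sample names carry the tag E19 in 2 livers and 7 tumors and the tag E20 in 4 livers and 5 tumors, and what the tags stand for was not given in the sources used here.

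Nrf2 is a transcription factor that is made continuously and, in unstressed cells, handed by Keap1 to a ubiquitin ligase for degradation. Oxidants and electrophiles modify Keap1, after which Nrf2 accumulates, pairs with small Maf proteins and binds antioxidant response elements near genes for glutathione synthesis, thioredoxin reduction, NADPH supply and detoxification. In the liver this response protects hepatocytes during drug metabolism, and mutations that activate the pathway are known in hepatocellular carcinoma. Since Nrf2 is controlled mainly through its protein, the mRNA of Nfe2l2 and Keap1 does not measure the activity of the pathway.

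The promoters are shown first for 4 genes, because Srxn1 and G6pdx were higher in tumors by the test used here, Nfe2l2 encodes the factor itself, and Nqo1 is the target most often used as a readout. RefSeq promoters on GRCm38.p6 were found for 8 of the 10 genes (10 promoters, 3 of them for Txnrd1), and Gclc and Hmox1 had no entry. Each window ran from 250 bases before a gene's start to 50 bases after it, and the bases before the start are printed 5′ to 3′ in the gene's direction. Capitals mark matches to TGACNNNGC or TGAGNNNGC, cores of the antioxidant response element, on either strand, and the form with TGAG was added after the promoters had been seen.
Srxn1 (chr2:152105274-152105523, plus strand): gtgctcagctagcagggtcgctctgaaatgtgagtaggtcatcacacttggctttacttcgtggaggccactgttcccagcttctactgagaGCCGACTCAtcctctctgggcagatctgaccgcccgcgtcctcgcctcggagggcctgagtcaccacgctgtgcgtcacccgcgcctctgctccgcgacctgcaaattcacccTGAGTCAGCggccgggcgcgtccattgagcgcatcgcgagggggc
G6pdx (chrX:74428881-74429130, minus strand): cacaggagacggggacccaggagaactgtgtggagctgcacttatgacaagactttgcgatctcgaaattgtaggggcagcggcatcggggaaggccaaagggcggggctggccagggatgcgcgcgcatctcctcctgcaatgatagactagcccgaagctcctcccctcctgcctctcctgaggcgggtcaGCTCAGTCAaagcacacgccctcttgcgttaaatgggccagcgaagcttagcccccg
Nfe2l2 (chr2:75704664-75704913, minus strand): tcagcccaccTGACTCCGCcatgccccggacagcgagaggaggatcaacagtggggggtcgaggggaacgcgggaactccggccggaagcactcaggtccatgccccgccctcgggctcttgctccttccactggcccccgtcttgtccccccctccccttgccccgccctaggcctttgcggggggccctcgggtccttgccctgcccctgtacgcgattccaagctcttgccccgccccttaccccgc
Nqo1 (chr8:107403206-107403455, minus strand): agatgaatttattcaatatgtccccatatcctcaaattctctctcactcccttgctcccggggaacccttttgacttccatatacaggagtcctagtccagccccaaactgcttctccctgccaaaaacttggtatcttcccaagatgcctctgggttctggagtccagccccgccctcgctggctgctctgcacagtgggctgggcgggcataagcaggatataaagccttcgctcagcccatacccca

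The Srxn1 promoter held 3 matches, which began 158 and 45 bases before the start and 28 bases after it. The match at 45 bases, TGAGTCAGC, overlapped the motif TGAGTCA that AP-1 factors also bind. The G6pdx promoter held 1 match 57 bases before the start, that of Nfe2l2 held 1 match 240 bases before it, that of Gclm held 1 match 134 bases before it, and the second of the Txnrd1 promoters held 1 match 92 bases before its start. Windows of Nqo1, Keap1 and Gpx2 held none of these letters, which says nothing about elements outside them. Thus 5 of the 8 genes had a match, against 30.8% of 27025 genes and 35.4% of the 9104 genes that were also tested for expression. Over 32851 promoters, 12.4% held the TGAC form, 17.6% the TGAG form and 27.8% either. A match is a description of the sequence, not evidence of binding.

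Values were read as TPM, a share of all transcripts per gene length, rounded to whole numbers, and were divided here by a scaling factor per sample. The paper calls the deposited values raw counts, and the reading as TPM rests on their match with values given as TPM. Totals ranged from 835144 to 884597 in livers and from 845356 to 907513 in tumors, and the reads behind a value are unknown. Hepatocyte markers (Alb, Ttr, Apoa1, Serpina1a, Tat and Hnf4a) were high in both groups, with sums of 36428 to 47348 in livers and 34532 to 72866 in tumors. Tumor 2 stood apart, because Siglece took 82.9% of its total (21.5% to 53.4% in the other tumors, 17.9% to 29.5% in livers), and 1 deposited unit there equals a scaled value of 5.14. In tumor 2 a listed 0 therefore spans levels that are above 0 elsewhere. Liver 1 stood apart as well, being the highest of the livers in 27.7% of the 11708 tested genes and the lowest in 24.1%. In bulk tissue, fewer cells of a type and less RNA per cell cannot be told apart.

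Srxn1, which encodes the enzyme that repairs over-oxidized peroxiredoxins, and G6pdx, which encodes the first enzyme of the NADPH-producing pentose phosphate pathway, were the members that rose in tumors. Nfe2l2 was 1.49-fold higher but missed the threshold. The remaining tested genes had fold changes between 0.696 and 1.24. In the limma fit over all 11708 genes with Benjamini-Hochberg adjustment, 9 of the 10 genes were tested, 2 passed and both were higher. Over all tested genes 9.77% passed as higher and 9.28% as lower. With 9 genes, the count of 2 is close to what the share over all genes, in both directions would give. No member had every tumor above every liver, which held for 2.18% of tested genes, or every tumor below every liver, which held for 0.982%.

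**Figure D1:**
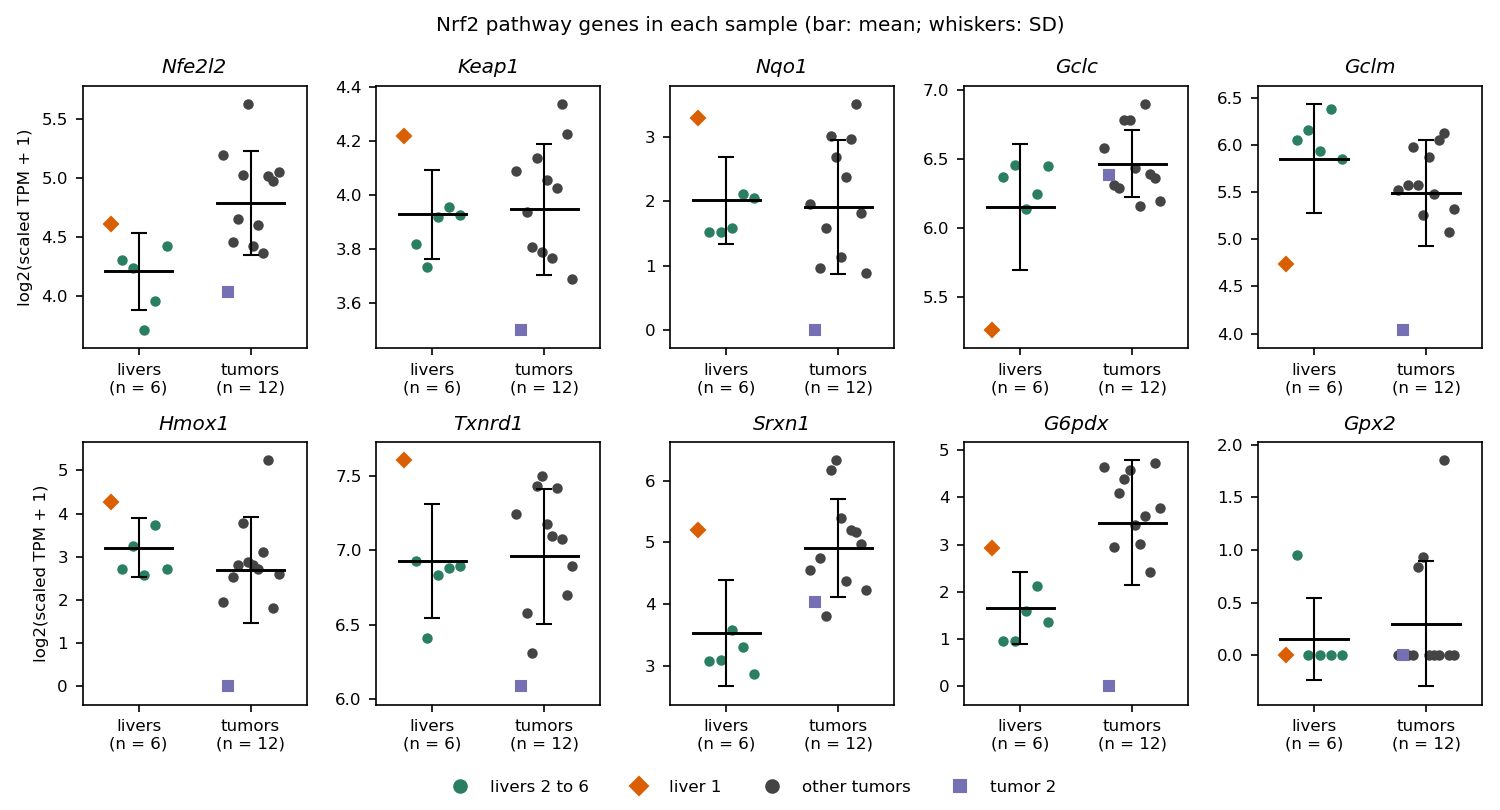
Scaled TPM of the 10 genes on a log2 scale with a pseudocount of 1, each panel with its own axis. Points are samples, thick bars are means and whiskers are SDs of 6 livers and 12 tumors. G6pdx values lay above all livers in 10 of 12 tumors and Srxn1 values in 3, whereas liver 1 (diamond) lay outside the range of the other livers for the 9 tested genes and tumor 2 (square) was listed at 0 for Nqo1, Hmox1 and G6pdx.

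Nfe2l2 (chromosome 2, 75675513 to 75704663, all positions on GRCm38.p6) had scaled values of 12.1 in the lowest liver, 18.4 at the median and 23.4 in the highest liver. In tumors the lowest value was 15.4 in tumor 2, the median 27.2 and the highest 48.3 in tumor 6. Of the 12 tumors, 7 lay above all livers and none lay below, so the groups overlapped in 5 tumors. The log2 fold change was 0.58 ± 0.20 (SE), with an adjusted p of 0.0516 in limma. This value sits at the threshold: of 33 fits with other settings or without single samples, 10 called Nfe2l2 higher, among them those without liver 1 (0.66, adjusted p = 0.0332 in limma) and without tumor 2 (adjusted p = 0.0115 in limma). Under every one of these fits Nfe2l2 was higher in tumors, with log2 fold changes between 0.41 and 0.92.

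Keap1 (chromosome 9, 21229730 to 21239332), the adaptor that holds Nrf2 for degradation, varied least among livers of the 9 tested members. It had values of 12.3, 14.1 and 17.6 in the lowest, median and highest liver, and of 10.3, 14.8 and 19.2 in tumors. Tumors spread to both sides of the livers, with 2 above and 2 below all of them. The log2 fold change was 0.02 ± 0.14 (SE, limma adjusted p = 0.945), and its sign changed between settings.

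The thioredoxin arm was represented by Srxn1 and Txnrd1, the reductase that keeps thioredoxin in its active form with NADPH. Srxn1 (chromosome 2, 152105524 to 152111376) had values of 6.32, 8.25 and 35.9 in the lowest, median and highest liver. In tumors it had values of 13, 28.1 and 79.3, from tumor 4 to tumor 6. The highest liver was liver 1, while the other 5 livers reached only 11 and lay below every tumor. With all livers, 3 tumors (5, 6 and 7) lay above the group, and the log2 fold change was 1.39 ± 0.37 (SE), a 2.62-fold difference (limma adjusted p = 0.0107). Without liver 1 it was 1.72 (limma adjusted p = 0.000924). All 18 fits that left out 1 sample called Srxn1 higher. Its call was lost without scaling between samples (limma adjusted p = 0.112) and in E20 samples alone (1.14, limma adjusted p = 0.333), where 4 livers including liver 1 faced 5 tumors.

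Txnrd1 (chromosome 10, 82833951 to 82897724) had the highest level per length of the 10 genes in both groups. Its values were 84.1, 118 and 194 in the lowest, median and highest liver and 66.8, 135 and 180 in tumors. No tumor exceeded liver 1, and 2 tumors (2 and 4) lay below all livers. The log2 fold change of 0.03 ± 0.22 (SE, limma adjusted p = 0.943) did not pass. Without liver 1 it was 0.17 (limma adjusted p = 0.649). Whether Srxn1 and Txnrd1 differ in their response was not tested.

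G6pdx (chromosome X, 74409483 to 74428880) had the largest difference of the tested members. Its values were 0.939, 1.79 and 6.59 in the lowest, median and highest liver, with the highest in liver 1 and 3.35 as the next. In tumors the lowest was tumor 2, listed at 0, the median was 11.9 and the highest was 25.3 in tumor 11. Of the tumors, 10 lay above all livers, and tumor 10 with 4.35 lay above all livers but liver 1. The log2 fold change was 1.81 ± 0.52 (SE), a 3.51-fold difference on the scale with a pseudocount of 1 (limma adjusted p = 0.0181). It was 2.06 without liver 1 (limma adjusted p = 0.00921), and 2.42 with liver 1 and tumor 2 left out together (limma adjusted p = 4.62e-05). The call was lost without liver 2 (1.67, limma adjusted p = 0.0524), without liver 3 (1.67, limma adjusted p = 0.0513), with a pseudocount of 0.1, which gives the listed 0 more weight (limma adjusted p = 0.122), and in E20 samples alone (1.65, limma adjusted p = 0.36). Reads of its near-identical retrocopy G6pd2 could be split with it in the authors' quantification, which was not examined.

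Glutathione synthesis starts with glutamate-cysteine ligase, whose catalytic subunit is encoded by Gclc and whose modifier subunit by Gclm. Gclc (chromosome 9, 77754535 to 77794489) had values of 37.3, 78.2 and 86.9 in the lowest, median and highest liver and of 70.3, 82.5 and 118 in tumors. Gclm (chromosome 3, 122245487 to 122267215) had values of 25.6, 63 and 82.7 in livers and of 15.4, 45.8 and 68.8 in tumors. Liver 1 was the lowest liver for both subunits. Gclc exceeded all livers in 4 tumors (1, 5, 6 and 9), whereas no tumor exceeded all livers in Gclm. The log2 fold changes were 0.31 ± 0.18 for Gclc (SE, limma adjusted p = 0.245) and −0.36 ± 0.27 for Gclm (SE, limma adjusted p = 0.389), and neither passed. Without liver 1 the value for Gclc was 0.13 and that for Gclm was −0.59 (limma adjusted p = 0.0994), while without tumor 2, which had the lowest Gclm, that for Gclm was −0.21 (limma adjusted p = 0.492). The difference between the subunits was not tested. Gpx2 (chromosome 12, 76792335 to 76795554), a glutathione peroxidase best known from the gut epithelium, did not pass the filter on low values. It was listed at 0 in 5 livers and 9 tumors and was above 0 in liver 2 (0.939) and in tumors 5, 6 and 10, with 2.61 as the highest value in tumor 10. Its mean log2 values differed by 0.14, which an exact two-sided permutation test over all 18564 splits did not separate from 0 (p = 0.73).

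Nqo1 reduces quinones, and Hmox1 (heme oxygenase 1) breaks down heme. Nqo1 (chromosome 8, 107388225 to 107403205) had values of 1.88, 2.59 and 8.79 in the lowest, median and highest liver. In tumors the lowest was listed at 0 in tumor 2, the median was 2.72 and the highest was 10.4 in tumor 10. Only tumor 10 exceeded liver 1, and 4 tumors (2, 3, 7 and 12) were listed below all livers. Tumors 3, 7 and 12 held 1 deposited unit and livers 2, 3 and 4 held 2, a single step of the rounded values. In tumor 2, where 1 unit equals 5.14, the listed 0 does not exclude a level above the lowest liver. The log2 fold change was −0.11 ± 0.43 (SE, limma adjusted p = 0.898), and it changed to 0.15 without liver 1 and to 0.33 with liver 1 and tumor 2 left out together (limma adjusted p = 0.549). Hmox1 (chromosome 8, 75093618 to 75100593) had values of 5.02, 7.07 and 18.3 in livers, with the highest in liver 1. In tumors it was listed at 0 in tumor 2, with a median of 5.82 and a highest value of 36.6 in tumor 10. Again tumor 10 alone exceeded all livers, and 4 tumors (1, 2, 3 and 11) lay below them. For tumor 3 this came from the scaling alone, since it and liver 4 both held 5 deposited units. The log2 fold change was −0.52 ± 0.48 (SE, limma adjusted p = 0.507). It was −0.31 without liver 1, −0.26 without tumor 2, −0.06 without both and −0.75 without tumor 10 (limma adjusted p = 0.213), so its size rested on single samples. Macrophages also express Hmox1, and the summed level of 10 Kupffer cell and macrophage markers was 222 in tumor 10, in a range of 37 to 233 over tumors and 93.9 to 263 over livers. None of these 10 markers was at 0 in every sample, and their part in the level of Hmox1 was not tested.

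**Figure D2:**
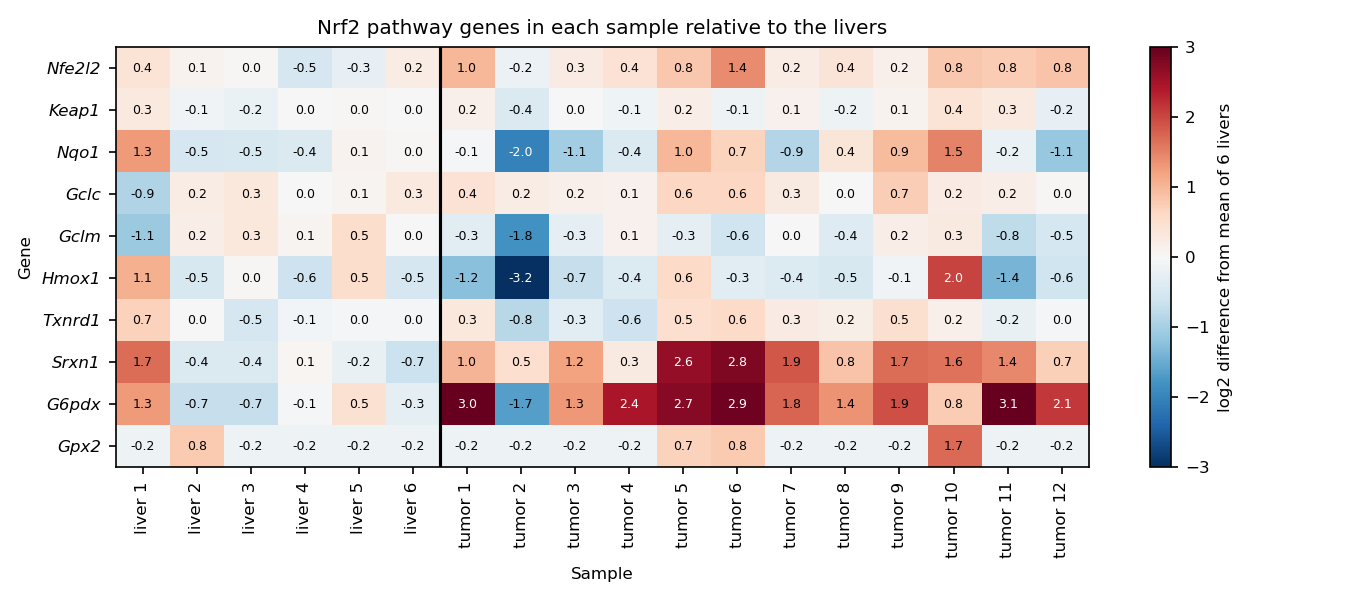
Log2 scaled TPM with a pseudocount of 1 of the 10 genes (rows) in each sample (columns), minus the mean of the 6 livers, with red for higher and blue for lower values. G6pdx and Srxn1 are red in nearly every tumor, liver 1 is red for Srxn1 (1.68), Nqo1 (1.27), G6pdx (1.27) and Hmox1 (1.06) and blue for Gclc (−0.89) and Gclm (−1.12), and tumors differ in Nqo1 and Hmox1.

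Among livers, liver 1 was often at the edge of the range. It was the highest liver for 7 of the 9 tested members and the lowest for the other 2, Gclc and Gclm. In the 81 other tested genes of the pathway, it was the highest in 15 and the lowest in 28. Over all 11708 tested genes it was the highest in 27.7% and the lowest in 24.1%, so these counts are not read as particular to the pathway. Nqo1 was 8.79 in liver 1 against 1.88 to 3.35 in the other livers, Srxn1 was 35.9 against 6.32 to 11, and Txnrd1 was 194 against 84.1 to 121. The sum of erythroid markers was also lower in liver 1, with 3.66 against 30.8 to 65.9 in the other livers. The sum of endothelial markers was 22 there against 46.6 to 69.3, and that of neutrophil markers was 5.86 against 0.939 to 1.58. Only 1 of the 4 neutrophil markers found passed the filter, so their sum rests on low values. The sum of hepatocyte markers was 36428 against 36707 to 47348, close to the next liver. That of Kupffer cell and macrophage markers was 143, within the 93.9 to 263 of the other livers. The part of these other cells or of blood content in the levels of the members was not tested.

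Among tumors, several targets had a wider spread than the median tested gene. The share of genes with as wide a spread, or of genes at a like level, was not computed. The SD of log2 values was 1.32 for G6pdx, 1.22 for Hmox1, 1.05 for Nqo1 and 0.789 for Srxn1, against a median of 0.486 over tested genes. It was 0.243 for Keap1 and 0.244 for Gclc, below that median. Without tumor 2 the SD was 0.776 for G6pdx, 0.924 for Hmox1, 0.899 for Nqo1 and 0.776 for Srxn1. The median over tested genes without tumor 2 was not computed. In livers the median over genes was 0.353, and Srxn1 had 0.857, which fell to 0.272 without liver 1. Tumors 5 and 6 had the highest Srxn1 (71.2 and 79.3) and the highest Txnrd1 (172 and 180), and tumor 6 also the highest Nfe2l2. Tumor 10 had the highest Nqo1, Hmox1, Keap1, Gclm and Gpx2 but the lowest G6pdx among the tumors not listed at 0. Tumor 9 had the highest Gclc, and tumor 11 had the highest G6pdx and, after tumor 2, the lowest Hmox1. No tumor was thus the highest for all targets.

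Whether the other members varied with Nqo1 was examined over the 12 tumors, in 9 relations of log2 values. Hmox1 had a Pearson r of 0.79 (permutation p = 0.00118, adjusted p = 0.0106, two-sided) and a Spearman rho of 0.78 (permutation p = 0.00423). Txnrd1 had an r of 0.73 (permutation p = 0.00675, adjusted p = 0.0297) and a rho of 0.69 (permutation p = 0.0149), and Gpx2 an r of 0.67 (permutation p = 0.00991, adjusted p = 0.0297) and a rho of 0.70 (permutation p = 0.0136). Gpx2 was listed at 0 in 9 of the 12 tumors, so its relation rested on deposited values of 1, 1 and 3 in tumors 5, 6 and 10. With a pseudocount of 0.1 it did not pass (r of 0.56, permutation adjusted p = 0.0673). The other 6 relations had r between 0.44 for G6pdx and 0.64 for Keap1 and did not pass. Of 8224 genes compared, the 5 most like Nqo1 reached an r of 0.87 to 0.91. The share of all genes with an r as high as that of the members was not computed. The values are therefore not read as particular to the members. The relations that passed also rested on few samples. Without the tumors farthest from the median of Nqo1, tumors 2 and 10, none of the 9 passed, and r was 0.49 for Hmox1, 0.68 for Txnrd1, 0.59 for Gpx2 and 0.74 for Gclc (permutation adjusted p = 0.152 for Gclc). None passed without tumor 2 alone, where Hmox1 had an r of 0.67 (permutation adjusted p = 0.0631), or in the 7 E19 tumors, where it had an r of 0.77 (permutation adjusted p = 0.108). No value is given for the 5 E20 tumors, since at least 6 samples were required. With tumors 11 and 12 of the shared mouse averaged, Hmox1 had an r of 0.84 and Txnrd1 one of 0.76, and Gpx2 no longer passed (0.68, permutation adjusted p = 0.0573).

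**Figure D3:**
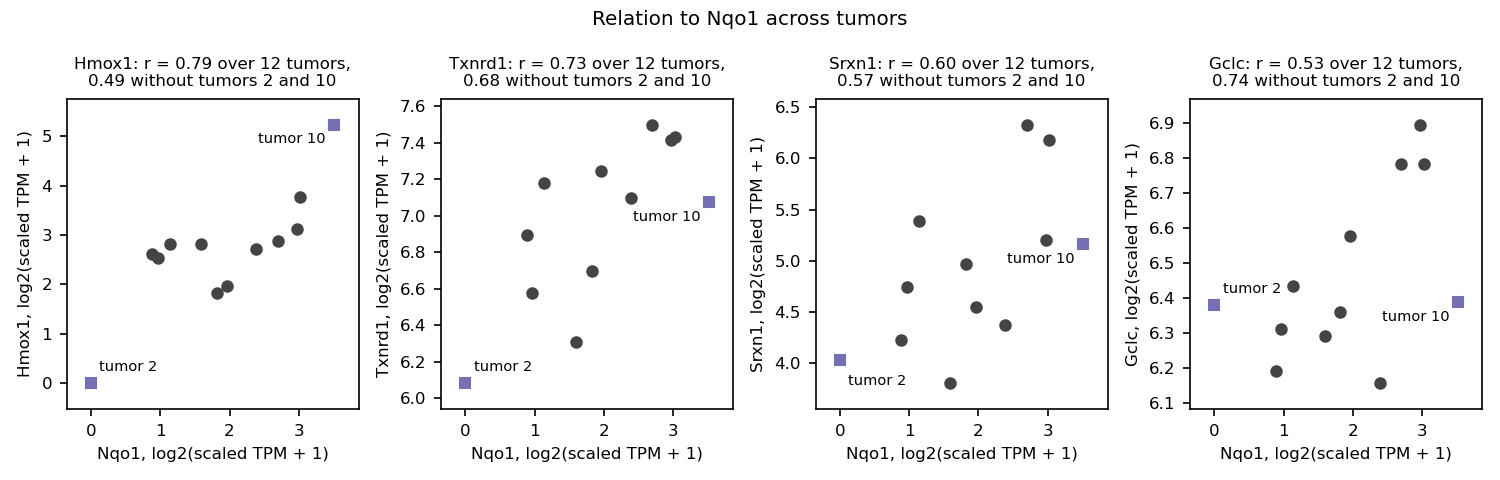
Hmox1, Txnrd1, Srxn1 and Gclc against Nqo1 over 12 tumors, all as log2 scaled TPM with a pseudocount of 1, with tumors 2 and 10 as squares. For Hmox1, r was 0.79 with these tumors and 0.49 without them, while for Gclc it was 0.53 with and 0.74 without.

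Of 8224 genes compared by Pearson r over the 12 tumors, those most like Nqo1 were Med21 (0.91), Tubb4b (0.90), Gstm3 (0.88), Cbr1 (0.87) and Tsnax (0.87). Gstm3, a glutathione transferase, and Cbr1, a carbonyl reductase, are themselves in the pathway lists used here. Gstm3 had scaled values from 5.14 in the lowest tumor over a median of 22.3 to 378 in tumor 10, the tumor with the highest Nqo1. Those most like Nfe2l2 were N4bp1 (0.90), Ncl (0.87), Crnkl1 (0.86), Pank2 (0.85) and Zmat3 (0.85), and all 5 were highest in tumor 6, as Nfe2l2 was. Without tumor 2 these r lay between 0.79 and 0.87. They are the highest of many values, share the samples and their scaling, and carry no test.

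In the rest of the pathway more genes fell than rose in tumors. Of 87 further genes listed by role, 86 were in the table, 81 were tested, 6 rose and 13 fell. The share that rose was 7.41%, against 9.77% over all tested genes, and the share that fell was 16%, against 9.28%. Their median log2 fold change was −0.28, against −0.06 over all tested genes and 0.03 over the 9 tested members. The counts were nearer to even under some settings, with 7 rising and 9 falling with Siglece removed, 7 and 11 with a median of ratios as scaling and 3 and 5 in E19 samples alone. They were 1 and 6 without scaling and 1 and 4 in E20 samples alone. With the tag as covariate they were 6 and 22, and with sample quality weights, which also raised the calls over all genes, 11 and 23. Sums of markers of other cells also differed between samples. The 6 biliary and progenitor markers had sums of 58.1 to 920 in tumors and of 9.45 to 19 in livers, with Cldn4 at 0 in every sample, and 1 of the 2 tested was called higher. The 7 fibroblast and stellate cell markers (3 called higher, 2 lower) had sums of 34.4 to 143 in tumors, which enclose those of 47.6 to 74.8 in livers. The 6 endothelial markers (2 higher, 0 lower) had sums of 20 to 211 in tumors and of 22 to 69.3 in livers, and of the 10 Kupffer cell and macrophage markers 0 were called higher and 2 lower. Their part in these differences and in those of Srxn1 and G6pdx was not tested.

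Among 13 regulators tested, the small Maf proteins, which are the partners of Nrf2 on DNA, changed in opposite directions. Mafk had scaled values of 3.16 to 5.13 in livers and of 6.02 to 10.9 in tumors, every tumor above every liver (log2 fold change 0.91 ± 0.14, SE, limma adjusted p = 0.000111). Mafg had values of 49.8 to 93.9 in livers and of 13.6 to 45.8 in tumors, every tumor below every liver (−1.38 ± 0.22, SE, limma adjusted p = 0.000175). Maff rose by 0.90 (limma adjusted p = 0.0216), with 8 tumors above all livers. Dcaf11, a receptor of a ubiquitin ligase that can act on Nrf2 apart from Keap1, was lower in every tumor than in every liver (−0.84, limma adjusted p = 0.00309). Over all tested genes, every tumor lay above every liver in 2.18% and below every liver in 0.982%. Mafk and Mafg kept their calls in all 18 fits without 1 sample, and Maff lost it without liver 1 or liver 5 (limma adjusted p up to 0.0653).

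Of 8 tested genes around glutathione, 1 rose and 2 fell. Over all tested genes 9.77% rose and 9.28% fell, so the small counts in this and the following lists are not read as results about a list. Gss, the enzyme of the last step of glutathione synthesis, rose by 0.71 ± 0.18 on the log2 scale (SE, limma adjusted p = 0.00806), with 10 tumors above all livers. Gpx1, the main cytosolic glutathione peroxidase, fell by 1.98 ± 0.45 (SE, limma adjusted p = 0.00387), from 346 to 1082 in livers to 20.6 to 425 in tumors, with 11 tumors below all livers. Glrx, a glutaredoxin, had a log2 fold change of −0.82 and an adjusted p of 0.04996 in limma, and lost its call in 13 of 18 fits without 1 sample. Of 14 glutathione transferases none rose and 3 fell: Gsta2 (−2.73, limma adjusted p = 0.00115), Mgst1 (−1.49, limma adjusted p = 0.00119) and Gsta3 (−1.15, limma adjusted p = 0.000858), all 3 also in every fit without 1 sample. Reads of the closely related Gsta genes can be split between them, so their separate values are uncertain.

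The 12 thioredoxin and peroxiredoxin genes gave no call in either direction, with a median log2 fold change of −0.34. Of 7 NADPH genes, Pgd, the pentose phosphate enzyme that produces NADPH after G6pdx, rose by 1.09 ± 0.35 (SE, limma adjusted p = 0.0304), from a liver mean of 19.8 ± 14.2 (SD, n = 6) to a tumor mean of 39.3 ± 14.6 (SD, n = 12). As for G6pdx, the highest liver was liver 1, with 45.4, and the call was lost without liver 2, 3 or 6 (limma adjusted p up to 0.101).

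Of 19 detoxification and transport genes 1 rose and 5 fell, against 9.77% and 9.28% over all tested genes. Every tumor lay below every liver in 0.982% of all tested genes. Ptgr1, which reduces reactive aldehydes and lipid mediators, had values of 0.939 to 2.23 in livers, and 11 tumors lay above all livers, with 8.2 as the highest value and tumor 2 listed at 0 (log2 fold change 1.28 ± 0.35, SE, limma adjusted p = 0.012). Abcc3, a transporter that exports conjugates to blood, was lower in every tumor (10.4 to 57.4) than in every liver (61.4 to 105), at −1.09 ± 0.26 (SE, limma adjusted p = 0.00532). Ces1g, a carboxylesterase, fell by 1.46 (limma adjusted p = 0.0281) and Aldh3a2, an aldehyde dehydrogenase, fell by 1.19 (limma adjusted p = 0.0213). The other genes that fell, named after their values were seen, were the glucuronosyltransferase Ugt1a6a, below every liver in all 12 tumors (−0.85, limma adjusted p = 0.00589) and the aldehyde oxidase Aox1 (−0.78, limma adjusted p = 0.048). Ces1g lost its call without any 1 of livers 2 to 6 (limma adjusted p up to 0.0749) and Aldh3a2 without liver 6 (limma adjusted p up to 0.0702). Aox1 lay close to the threshold, and fits with 1 sample left out are not given here for Aox1 and Ugt1a6a. Of 8 heme and iron genes, Slc48a1, which carries heme out of lysosomes, rose by 1.31 ± 0.29 (SE, limma adjusted p = 0.00305), with 11 tumors above all livers. Fech, which inserts iron into heme, fell by 0.76 (limma adjusted p = 0.0188), and its call was lost without liver 2 or 3 (limma adjusted p up to 0.063).

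Several of these calls depended on the setting. Without scaling between samples, Mafk, Maff, Dcaf11, Gss, Glrx, Gsta3, Pgd, Aldh3a2, Slc48a1 and Fech did not pass (limma adjusted p from 0.0563 for Gsta3 to 0.495 for Gss). With a pseudocount of 0.1, Ptgr1 (1.47, limma adjusted p = 0.158) and Glrx (limma adjusted p = 0.0619) did not pass. With Siglece removed and totals rescaled, Aldh3a2, Fech and Glrx did not pass (limma adjusted p of 0.0648, 0.0774 and 0.109). In E19 samples alone, Maff, Gss, Glrx, Gsta2, Ces1g, Aldh3a2, Abcc3, Slc48a1 and Fech did not pass (limma adjusted p from 0.0557 for Gss to 0.41 for Aldh3a2). Aox1 and Ugt1a6a passed neither without scaling nor in E19 samples alone. In E20 samples alone, the named genes other than Aox1 and Ugt1a6a that passed were Mafk, Gsta2, Mgst1 and Abcc3. Mgst1 passed under all 33 fits.

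**Figure D4:**
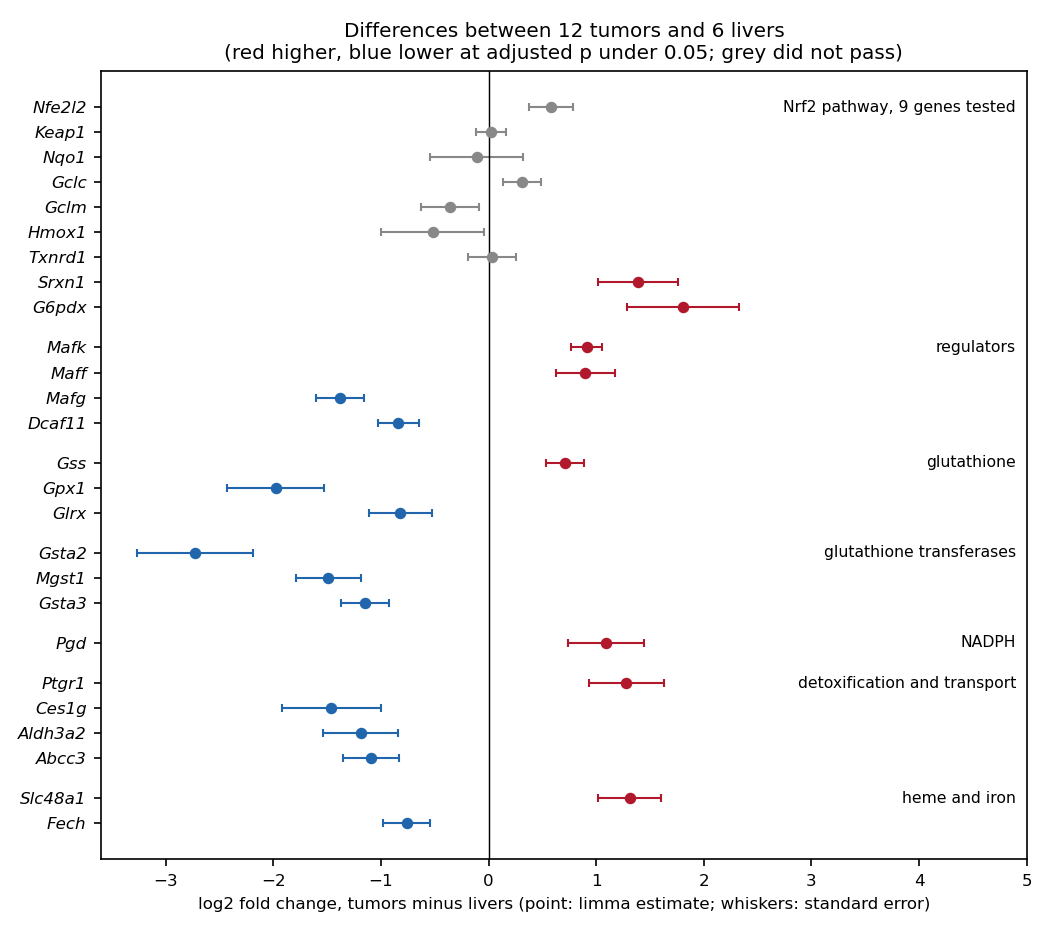
Log2 fold changes of tumors over livers with standard errors from limma, for the 9 tested members and for the pathway genes named in the text except Aox1 and Ugt1a6a, grouped by list. Among members G6pdx (1.81) and Srxn1 (1.39) are to the right of 0 and passed, and the largest decreases are those of Gsta2 (−2.73) and Gpx1 (−1.98).

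The difference between tumors and livers was also compared between the tags. No gene had a difference that varied between E19 and E20 samples in the limma interaction test at an adjusted p under 0.05 (348 of 11708 genes had an unadjusted p under 0.05), and for the tested members all adjusted p were 0.971 or higher. With only 2 livers tagged E19, the SE of this contrast was 1.13 for G6pdx and 0.79 for Srxn1 on the log2 scale. The test could therefore miss large differences between the tags. In E19 samples alone, Nfe2l2 was higher by 0.92 on the log2 scale (limma adjusted p = 0.0266), Srxn1 by 1.66 (limma adjusted p = 0.0385) and G6pdx by 1.84 (limma adjusted p = 0.0392). In E20 samples alone the values were 0.50, 1.14 and 1.65, and none of them passed.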

How the data were processed

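Livers (6) and advanced tumors (12) of Alb-R26Met mice were numbered separately, after the last number in their sample names. RNA with a poly-A tail was sequenced paired end by the authors, who quantified genes with Salmon on GRCm38 and normalized them to TPM. The table they deposited holds whole numbers, treated here as a score, since 882 of 900 values given as TPM for 50 genes equal them within rounding. The reads behind a value are unknown, so no counting intervals are given. Samples were scaled by trimmed means of M values (30% of M and 5% of A values trimmed, unweighted). Genes whose scaled value reached 1 in at least 6 samples were tested, and log2(scaled value + 1) entered limma 3.58.1 in R 4.3.3 (trended prior variance), with Benjamini-Hochberg adjusted p under 0.05 as threshold. The fit was also run on simulated data, drawn as independent normal values with 1 SD per gene. No sample set apart like liver 1 was simulated, and the outcome is not given here. Apart from tumors 11 and 12, which share a mouse, the samples came from separate mice.

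A member below the filter was tested by exact permutation, and relations across tumors by 100000 permutations in Python 3.11.15 with scipy 1.17.1. The members and the gene lists were chosen with earlier results of these data known. All 10 members are described. From each list, the called genes with the highest (up to 3) and the lowest (up to 3) log2 fold change were named, Aox1 and Ugt1a6a only after their values were seen, and for Nqo1 and Nfe2l2 the 5 genes with the highest r over tumors and a mean log2 value of at least 2, without symbols of the Gm or Rik series. Alternatives covered scaling, filter, pseudocount, tag and age as covariates, sample weights, tumors 11 and 12 averaged, the replicate number as a block, each tag alone and each sample left out. Leaving out liver 1 and tumor 2 together was chosen after seeing the data. RefSeq positions (GRCm38.p6) were matched by Entrez identifier.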

Additional observations from a re-analysis of the deposited data

Results flagged for a closer look

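For 27 named genes, the gap of an extreme liver to the nearest other was divided by the range of the 6 livers. In 5 genes this ratio exceeded Dixon's 95% critical value for 6 samples, where normally distributed values would give about 1.35. The genes share the same livers, and the share over all tested genes was not computed, so the count is not read as particular to these genes. In 4 of the 5 the sample was liver 1, which was the highest liver in 27.7% of the 11708 tested genes and the lowest in 24.1%. The ratio was 0.84 for Srxn1 (35.9 in liver 1 against at most 11 in the others), 0.787 for Nqo1 (8.79 against at most 3.35), 0.664 for Txnrd1 (194 against at most 121) and 0.645 for Gclc (37.3 against at least 69.3). For Gpx2 it was 1, because liver 2 held 0.939 and the other livers were listed at 0, which is 1 deposited unit in 1 sample.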

How the results depend on the processing

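Depth is unknown, values under 1 deposited unit are lost, tumor 2 has a coarse scale, and liver 1 weighs on the spread of the livers. Of 2230 genes, 2 members and 19 other pathway genes called, 1341, 1 and 7 were called without scaling, which moved the median log2 fold change over all genes from −0.06 to −0.18, and 4702 genes and 34 pathway genes with sample quality weights. With a pseudocount of 0.1 the call of 1 member held. E19 samples alone gave 1344 genes and 8 pathway genes, and E20 samples alone gave 405 genes, 0 members and 5 pathway genes. Without liver 1 and tumor 2 together 3699 genes were called. Leaving out 1 sample gave 1660 to 3207 genes, 1 to 3 members, 14 to 26 pathway genes, and 0 to 7 relations to Nqo1. With Siglece removed and totals rescaled, 62.3% of calls were higher, against 51.3% before.

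The replicate numbers shared by livers and tumors 1 to 6 were tried as a block. Livers and tumors of the same number came from different mice, so the numbers do not pair them. Same-numbered samples correlated at −0.105 to 0.422, over 0.1 in 3 of 6 pairs. The block gave 1359 genes and 1 member (G6pdx, limma adjusted p = 0.0189, Srxn1 0.0688), and the same 12 samples without it 1212 genes and 0 members (Srxn1 0.0673, G6pdx 0.0981).

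Signs changed for members near 0. Keap1 was −0.14 without scaling, −0.04 with the tag as covariate, −0.03 in the 12 samples with or without the block, −0.16 in E20 samples and −0.02 to 0.08 with 1 sample left out. Txnrd1 was −0.16 without scaling, −0.05 in the 12 samples with or without the block and −0.07 to 0.17 with 1 sample left out. Nqo1 was 0.09 with sample quality weights, 0.33 in E19 samples, 0.33 without liver 1 and tumor 2 and −0.25 to 0.15 with 1 sample left out. Hmox1 was 0.04 in E19 samples, and the difference of Gpx2 was −0.05 in E20 samples. Of 9 relations to Nqo1, 3 passed at first, 8 without scaling or with Siglece removed, 5 with a median of ratios as scaling, 0 in E19 tumors and 0 without tumors 2 and 10. The relation of G6pdx was −0.12 in E19 tumors and −0.07 to 0.66 with 1 tumor left out. The cause of these changes was not tested. Among all log2 fold changes of members under alternatives, 254 kept their direction and their side of the threshold, 10 passed newly, 9 no longer passed and 23 changed sign.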
